A study of Mus musculus with 267 samples.

Results

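In bone marrow-derived macrophages (BMDMs) of C57BL/6J (C57) mice, 6263 genomic sites were listed as bound by PPARγ both before IL-4 and after 24 hours of IL-4. They were chosen by the peak calls of both lists, as the peaks of the basal C57 list that were overlapped by at least 1 bp by a peak of the C57 list at 24 hours. They made up 82.1% of the 7627 basal peaks (exact 95% binomial interval 81.2 to 83.0%) and overlapped 16% of the 39088 peaks at 24 hours. The remaining 1364 basal peaks were found in basal only and 32825 peaks at 24 hours only. These sites are called shared, and the other sets basal-only and 24-hour-only. The 10 PPARγ lists of the study, 2 for each of 5 strains, held 232760 peaks.

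The study used ChIP-seq, which sequences DNA that is precipitated with a protein, to ask how natural genetic variation shapes the response of macrophages to IL-4. Bone marrow of female mice aged 8 to 12 weeks was grown into macrophages with M-CSF, and the cells were left untreated (basal) or given 20 ng/mL of IL-4. PPARγ was mapped in C57BL/6J, BALB/cJ, NOD/ShiLtJ, PWK/PhJ and SPRET/EiJ BMDMs, in basal and at 24 hours. The acetylated or methylated histone marks H3K27ac, H3K4me2 and H3K4me3 and RNA polymerase II (Pol II) were measured in C57 BMDMs, and PPARγ also in Egr2flfl and LyzMCreEgr2flfl BMDMs, where Cre driven by LyzM deletes floxed Egr2 in myeloid cells. Of the 10 macrophage genes fixed as markers, 10 had an H3K27ac region within 1 kb of the start, with basal means of 190.2 to 1080 normalized tags (scaled to 10000000 per library). Of 10 markers of other cell types, 6 had such a region. Among them Pecam1 averaged 455 tags, Ms4a1 had 82.1 and 94.1, and Epcam, Col1a1 and Flt3 had 0 to 2.85.

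PPARγ is a nuclear receptor that binds DNA as a heterodimer with RXR, mostly at direct repeats of AGGTCA spaced by 1 base (DR1). It is known as the master regulator of fat cell formation, and in macrophages its known targets include genes of fatty acid uptake, lipid droplets and fatty acid oxidation. IL-4 induces the Pparg gene itself through STAT6, while PU.1 and C/EBPβ are the lineage factors that keep macrophage enhancers open.

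The DR1 sequence was not used by the rule, and a minority of the sites held it. Of the 6263 shared sites, 998 held a match to AGGTCANAGGTCA with at most 2 mismatches on either strand within 200 bp, which is 15.9% (interval 15 to 16.9%). The same match was found in 5.65% of basal-only sites, in 9.77% of 24-hour-only sites and in 3.02% of all 77943 open chromatin regions of the H3K27ac time course. Open regions with no C57 PPARγ peak held it in 2.05%. An exact match stood in 37 shared sites. The 6 sites printed here, named by the protein-coding gene with the nearest start, had an exact match in the mm10 reference and were in the PPARγ lists of all 4 other strains in both conditions, with the repeat in capitals.
Eif2d, chr1:131188654-131188713, minus strand: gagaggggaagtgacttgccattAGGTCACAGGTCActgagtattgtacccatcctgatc
Rrbp1, chr2:144009598-144009657, minus strand: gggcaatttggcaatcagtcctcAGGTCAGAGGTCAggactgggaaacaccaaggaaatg
AC170998.1, chr17:28720943-28721002, plus strand: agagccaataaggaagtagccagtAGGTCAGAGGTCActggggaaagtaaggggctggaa
Tiparp, chr3:65516030-65516089, minus strand: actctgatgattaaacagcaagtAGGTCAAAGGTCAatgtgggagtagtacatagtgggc
1700020N01Rik, chr10:21601169-21601228, minus strand: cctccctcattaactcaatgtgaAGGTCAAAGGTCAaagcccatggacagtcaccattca
Grtp1, chr8:13221204-13221263, plus strand: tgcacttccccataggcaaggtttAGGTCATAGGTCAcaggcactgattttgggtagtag
The first 5 lie in introns and the last between genes, and none is within 1 kb of the start of the gene that names it. Of the 2162 shared sites in all 8 other lists, 16 had an exact match and 116 a match with 1 mismatch. Of 65 lipid genes with a shared site nearby, 19 (29.2%) had a match with at most 2 mismatches at the nearest one, none of them exact. Plin2, which coats lipid droplets, Etfa, an electron acceptor of fatty acid oxidation, and Angptl4, an inhibitor of lipoprotein lipase, had the strongest basal peaks of lipid genes whose repeat had 2 mismatches.
Plin2, chr4:86671967-86672026, minus strand: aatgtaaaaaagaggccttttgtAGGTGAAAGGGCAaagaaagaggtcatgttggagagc
Etfa, chr9:55512284-55512343, plus strand: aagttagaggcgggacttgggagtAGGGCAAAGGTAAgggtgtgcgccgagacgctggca
Angptl4, chr17:33779273-33779332, plus strand: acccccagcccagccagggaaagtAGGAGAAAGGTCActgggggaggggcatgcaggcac
The Etfa site lies at the promoter, the Plin2 site upstream of the gene and the Angptl4 site in an intron.

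Among shared sites, 680 of the 998 matches (68.1%) had their centre within 40 bp of the peak centre. The share was 66.3% in 24-hour-only sites and 61.0% in basal-only sites, against 43.5% of the matches in open regions with no PPARγ peak. The share with a DR1 match was 12.1%, 13.3%, 15.2% and 22.9% in 4 bins of rising basal list count, cut at its quartiles. It was 22.8% at sites in all 8 other strain lists, 4.55% at the 242 sites in 1 of them and 11.1% at the 81 sites in none, so it did not rise at every step. Sites without a basal PU.1 peak held it in 22.7% and sites with one in 13.6%, and the shares were 22.4% without and 11.8% with a basal STAT6 peak. At the same list count at 24 hours, shared and 24-hour-only sites were closer: 9.56% and 9.01% in the lowest bin, 12.7% and 12.3%, 19% and 15.5%, and 22.2% and 21.3% in the highest. A single AGGTCA was in 29.3% of shared sites and 14% of open regions. In shared sites and open regions, the PU.1 letters GGAAGT were in 38.9% and 33.1%, and the AP-1 letters TGANTCA in 18.9% and 16.8%. TTGCNNAA of C/EBP was in 13.5% and 12%. The STAT6 motif, TTC and GAA spaced by 4 bases, was in 5.99% and 6.04%, and GTGGGCG of EGR in 1.85% and 3.71%. In the same order the shares were 33.7%, 17.6%, 13.2%, 7.11% and 2.85% in 24-hour-only sites. They were 25%, 8.80%, 9.16%, 5.65% and 1.25% in basal-only sites. All motifs were searched on both strands, and some DR1 matches hold AGGTCA. The GC content was 49.0% in shared sites and 53.6% in open regions, and its part in these shares was not tested.

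**Figure D1:**
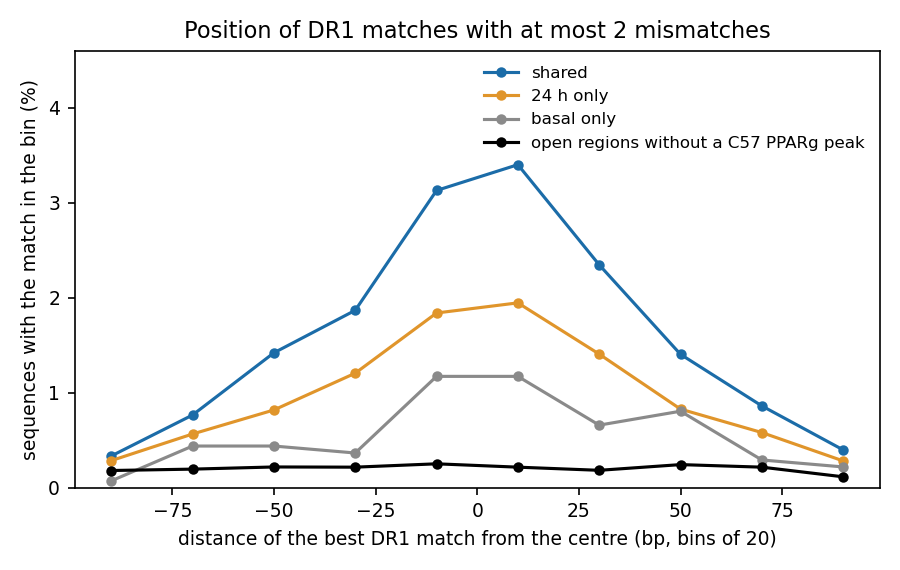
Share of sequences (y axis, percent) whose best DR1 match with at most 2 mismatches lies in each 20 bp bin of distance from the peak or region centre (x axis, bp). Shared sites rise to the highest share near the centre, above 24-hour-only and basal-only sites, while open regions with no C57 PPARγ peak stay level.

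The values of the 2 lists chose the sites and are given as a description. The count that the authors list for each peak, whose scale is not stated, had a median of 30.2 in basal (8.62 to 816.6) and 61.8 at 24 hours (7.61 to 1139.3) at shared sites. It was higher at 24 hours at 5275 of them and at least 2 times as high at 3011, with a median ratio of 1.94. Basal-only sites had a median count of 22.6 and 24-hour-only sites 20.0. The median overlap was 169 bp of the 200 bp peaks, 5625 sites (89.8%) overlapped by more than 100 bp, and 63 peaks had the same position in both lists. Just inside the rule stood 2 intron sites with 1 bp of overlap, named by the nearest start. They lay at -3974 bp from the start of Ntn5 (chr7:45679948-45680148, counts 28.0 and 56.1) and at 140982 bp from that of Tle3 (chr9:61513248-61513448, counts 24.8 and 38.0). Just outside stood the basal peaks near Mfsd6 (chr1:52722579-52722779, count 23.7) and Actr3 (chr1:125437854-125438054, count 16.2), which touched a 24-hour peak without sharing a base. In all, 93 basal-only peaks lay within 50 bp of a 24-hour peak and 954 lay more than 1000 bp away.

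The 5 sites with the highest basal count, picked by that count, had lower counts at 24 hours. The part of this choice in the difference was not tested, nor was an artefact of mapping. The intron of Filip1l (chr16:57391503-57391703) had the highest basal count, 816.6, and 519.2 at 24 hours. It was followed by an intron of Cdk8 (chr5:146261062-146261262) with 593.6 and 417.5, a UTR site whose nearest start is that of Limd1 (chr9:123461915-123462115) with 518.2 and 363.3, and the sites nearest Gm8797 (chr3:5860588-5860788) with 508.5 and 405.1 and Samd9l (chr6:3201399-3201599) with 481.6 and 332.8. The count was lower at 24 hours at all 5, while it was higher at 5275 of the 6263. All 5 were in open regions, in the PU.1 and C/EBPβ lists of both conditions and in no EGR2 list, and in 4 or 5 of the 8 PPARγ lists of other strains.

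Shared sites lay mostly away from gene starts. Of the 6263, 46.8% were in introns, 36.8% between genes, 12.7% within 1 kb of a protein-coding start, 2.2% in exons and 1.5% in UTRs, and the median distance to the nearest start was 19504 bp. Basal-only and 24-hour-only sites were in promoters at like shares (11.7% and 13.4%), while all open regions were there in 22%. Within the 77955 regions of the H3K27ac time course, 83.0% of shared sites, 60.3% of basal-only sites and 68.8% of 24-hour-only sites fell in a region.

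Most shared sites were also listed in other strains, although the lists differ from 6524 to 46415 peaks in length. At 24 hours 90.1% were in the NOD list, 84.1% in BALB, 80.8% in PWK and 65.0% in SPRET. In basal the shares were 75.3%, 52.7%, 74.8% and 65.2% in the same order. Sites of 24-hour-only type were in the 24-hour lists at 56.9%, 35.1%, 43.3% and 24.0%, and basal-only sites at 30.6%, 21.3%, 46.9% and 13%. Lists of all 4 strains held 54.3% of shared sites at 24 hours and 37.9% in basal. With all lists shortened to the shortest these shares were 24.5% and 29.2%, so that their order turned. All 8 lists held 2162 (34.5%), against 1.27% of 24-hour-only sites and 0.293% of basal-only sites, and 81 shared sites (1.29%) were in none. A site counted as bound in both conditions in C57 had the same state in NOD in 73.2%, in PWK in 69.1%, in SPRET in 58.0% and in BALB in 50.7%. SPRET had neither peak at 27.7% of them, NOD at 7.82%.

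The shared sites had higher counts, and counts go with presence in other strains. In bins of the 24-hour count cut at the quartiles of shared sites, the share in all 4 strains at 24 hours rose from 15.5% to 45.4%, 67.7% and 86.9%. For 24-hour-only sites in the same bins it was 4.43%, 29.8%, 54.6% and 71.3%, so shared sites remained above them in each. Each strain and condition has 1 list, so these differences have no replicate check, and the intervals cover counting error only.

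**Figure D2:**
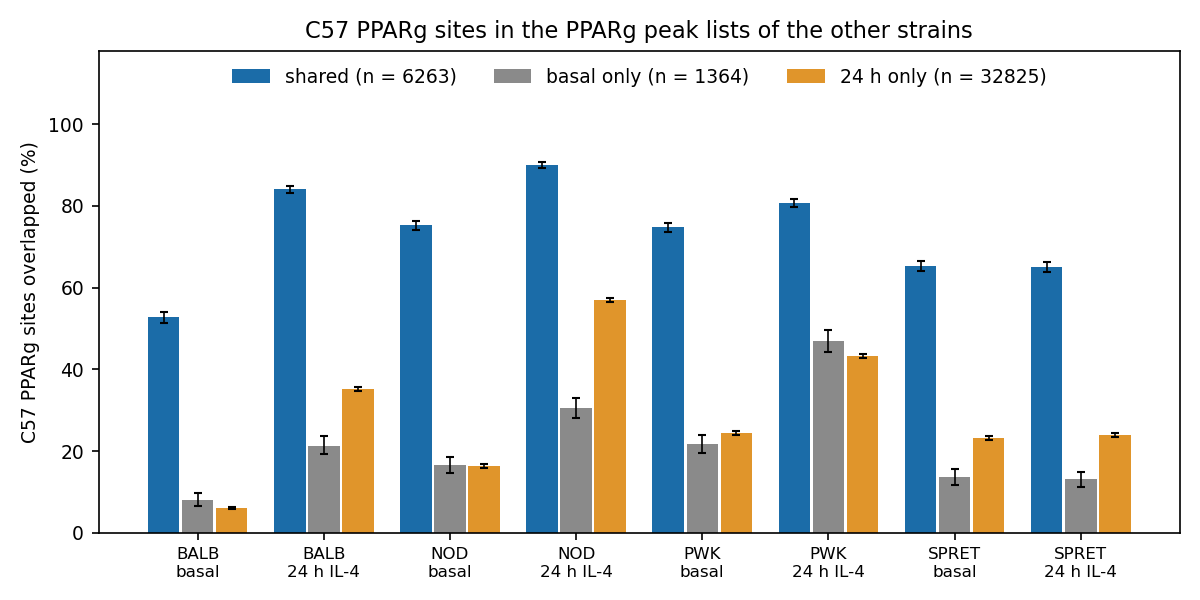
Share of C57 PPARγ sites (y axis, percent) overlapped by the PPARγ list of each other strain in basal and at 24 hours of IL-4 (x axis), with exact 95% binomial intervals, for shared, basal-only and 24-hour-only sites. The bar of shared sites is the highest in all 8 lists, from 52.7% in basal BALB to 90.1% in NOD at 24 hours.

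The other factors mapped in C57 covered most shared sites already in basal. PU.1 peaks overlapped 74.0% in basal and 75% at 24 hours, and STAT6 peaks 61.2% and 66.1%. C/EBPβ rose from 33% to 48.1% and EGR2, a zinc finger factor that IL-4 induces, from 11.2% to 37.7%, as EGR2 was listed anew at 1690 sites and lost at 29. Any of the 4 factors overlapped 83.1% in basal and 85.7% at 24 hours, and all 4 together 4.30% and 22.7%. At 24 hours the shares among 24-hour-only sites were lower, with PU.1 at 58.6%, STAT6 at 47.6%, C/EBPβ at 36.2% and EGR2 at 30.0%. At equal peak strength this order held in all bins for PU.1 alone. In the 4 bins of the PPARγ count at 24 hours EGR2 was at 26.6%, 35.7%, 39.2% and 49.0% of shared sites, and at 26.3%, 45.3%, 50.5% and 60.3% of 24-hour-only sites. C/EBPβ was at 32.0%, 44.6%, 53.1% and 62.0% of shared sites and at 32.0%, 53.8%, 58.8% and 62.1% of 24-hour-only sites. STAT6 was at 49.2%, 63.1%, 70.0% and 81.3% of shared sites and at 42.9%, 67.3%, 73.0% and 77.0% of 24-hour-only sites. The EGR2 list grew from 8437 to 29407 peaks and the C/EBPβ list from 18043 to 37499, and the part of list length in these rises was not tested.

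Genes of lipid metabolism had shared sites nearby more often than protein-coding genes at large. Of 91 genes in 4 lists, 65 (71.4%) had a shared site within 50 kb of their start, against 6949 of 21911 protein-coding genes (31.7%). Among genes with an open region at the start, a background chosen after the data were seen, the shares were 55 of 77 lipid genes and 5345 of 12264 genes (43.6%). The other sets also lay near lipid genes more often. Within 50 kb, 24-hour-only sites were near 96.7% of the 91 lipid genes and 69.0% of all protein-coding genes. Basal-only sites were near 16.5% and 10.2%. The gene lists were chosen with earlier results of the data known, so the shares are a description. The 65 genes shared 62 sites. The list count at 24 hours was higher than in basal for 59 of the 65 genes, as at 84.2% of all shared sites, and at least 2 times as high for 36, with medians of 45.2 and 115.1. The site was in all 8 other strain lists for 36 genes and within 1 kb of a protein-coding start for 27. That start can be another gene's, as for Plin4 and Plin5 (Sema6b), Thrsp (Ndufc2) and Gpd1 (Cox14).

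For lipid uptake and storage, 19 of 26 genes had a site. They were Plin2, Plin1, Plin4 and Plin5 of the lipid droplet coat, the fatty acid transporters Slc27a1, Slc27a4 and Cd36, the binding proteins Fabp4 and Fabp5, the lipases Lpl, Lipa, Lipe and Pnpla2, and Angptl4, Hilpda, Dgat1, Lpin1, Gpd1 and Agpat2. For fatty acid oxidation 24 of 32 had one. The 15 whose nearest site was within 1 kb of a protein-coding start, not always their own, included Etfa, Etfb and Etfdh of the electron transfer chain, Slc25a20, the carnitine carrier, the dehydrogenases Acadl, Acads, Acadvl and Hadh, and Acaa2 and Ech1. Cpt1a, the rate-limiting enzyme of mitochondrial fatty acid import, had its site in an intron, and Ucp2, Ucp3, Pdk4, Hadha and Hadhb were further members. For cholesterol and lipoprotein handling 16 of 20 had one, among them the lipid exporters Abca1 and Abcg1, Apoe, the liver X receptor Nr1h3, the scavenger receptors Msr1 and Scarb1, and Lpcat3, which remodels phospholipids. Fatty acid synthesis had 6 of 13, with Elovl5, Acaca and Thrsp having the higher counts, and the count was lower at 24 hours at 3 of them, Acly, Fasn and Elovl1.

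The 10 lipid genes with the highest basal counts at their nearest shared site were in all 8 other lists. Cpt1a (chr19:3325404-3325604) had the highest, with 410.5 in basal and 791.2 at 24 hours. The promoter site of Lpcat3 (chr6:124662861-124663061) had 325.4 and 600.1, and the site at -1959 bp from the start of Plin2 (chr4:86671919-86672119) had 303.8 and 644.8. Etfa had 268.3 and 594.4, Etfb 263.9 and 385.1, Angptl4 259.6 and 720.8, Acaa2 207.9 and 617.2, Lipa, the lysosomal acid lipase, 206.8 and 544.0, Slc27a1 190.7 and 391.8, and Slc27a4 178.8 and 373.7. All 10 were higher at 24 hours, as were 84.2% of all shared sites, and these counts are a description. At Cd36, a scavenger receptor for oxidized lipids, 4 shared sites lay within 50 kb of the start and the nearest had 45.2 and 136. Of the 65 genes, 3 had a nearest site with 1 mismatch to DR1 (Elovl5, Etfdh and Hadh) and 16 with 2, and the others had 3 to 6.

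Other lists gave smaller or larger shares. Of 16 genes of the PPAR and RXR machinery 8 had a shared site within 50 kb. The nearest at Pparg lay at -17037 bp from its start with counts of 30.2 and 72.3, and the coactivator Ncoa2 had 98.0 and 203.5. Ncor1 (43.1 and 17.1) and Ppard (20.5 and 15.2) had lower counts at 24 hours, and Rxra, Ppara and Ppargc1b had no site. Of 26 IL-4 response genes 16 had one. Arg1, the arginase of alternatively activated macrophages, went from 28.0 to 115.1, Cdh1 from 43.1 to 220.6 and Socs1, an inhibitor of cytokine signaling, from 98.0 to 276.7, while the 1 site near both Ccl17 and Ccl22 went from 30.2 to 14.3. Retnla, Chil3, Irf4 and Egr2 had none within 50 kb. The shares were 12 of 20 for glycolysis genes, 9 of 10 for the macrophage markers and 5 of 10 for markers of other cells, where the site of Nkg7 is that of Etfb. The transcription factor gene Klf6 and Zfp608 were the nearest start of 12 shared sites each, the most of all genes.

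H3K27ac, which marks active regulatory elements, was read from tag tables of 1000 bp regions, and it did not take part in choosing the sites. Of 77955 regions, 5594 overlapped a shared site. Their median level in the basal libraries was 97.0 and 113 normalized tags. It was 51 and 29.8 at 1 hour, 64.7 and 70.0 at 6 hours and 61.1 and 68.9 at 24 hours. Both basal medians lay above all 6 later ones. Regions at basal-only sites went from 74.97 and 90.9 in basal to 45.8 and 49.9 at 24 hours, and those at 24-hour-only sites from 40.03 and 42.8 to 33.1 and 38.1. Regions with no C57 PPARγ peak had 10.2 and 9.98 in basal and 10.2 and 10.5 at 24 hours. In bulk samples, fewer cells with a mark and less mark per cell cannot be told apart.

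With limma on log2(tags + 1) and Benjamini-Hochberg adjustment over all regions, 1283 shared regions were lower and 11 higher at 1 hour, where 8.36% and 1.37% of all regions were. The median log2 fold was -1.35, against -0.63 over all regions. At 6 hours 310 were lower and 39 higher (2.46% and 2.67% of all regions), with medians of -0.59 and -0.14. At 24 hours 43 were lower and 19 higher (0.327% and 1.13%), with medians of -0.67 and -0.22. Of the regions lower at 1 hour, 259 were also lower at 6 hours and 37 at 24 hours, and 33 were lower at all 3 times. These times share the basal libraries.

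The size of this fall depended on scaling. The share of a library's tags inside the regions was 69.7% and 63.8% in basal, 44.0% and 20.5% at 1 hour, 51% and 50.2% at 6 hours and 46.4% and 41.2% at 24 hours. With libraries scaled by the median ratio over regions, the medians at shared sites were -0.57, -0.38 and -0.36 at 1, 6 and 24 hours, against 0.09, 0.04 and 0.05 over all regions. The calls were then 173 lower and 36 higher at 1 hour (0.821% and 2.02% of all regions), 223 and 63 at 6 hours (1.56% and 3.24%) and 29 and 50 at 24 hours (0.245% and 1.73%). Higher calls were thus the majority at 24 hours under this scaling and with edgeR (46 higher, 28 lower), and lower calls with tags scaled to the library total. Lower calls were most frequent at 1 hour with library totals, and at 6 hours with the median ratio, edgeR (143 at 1 hour, 240 at 6 hours) and DESeq2 (522 and 537). In a fit of the basal and 24-hour libraries alone, limma called 0 regions at 24 hours, with 1844 shared regions at an unadjusted p under 0.05. Without basal replicate 2, 14 regions were called at 1 hour, and at 24 hours 17 were higher and 0 lower. Without 1-hour replicate 2, the library with 20.5% of tags in regions, 912 were called at 1 hour.

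Regions with more H3K27ac had lower folds. In 4 bins cut at the quartiles of mean H3K27ac of shared regions, an alternative added after seeing the data, the median log2 fold at 24 hours was -0.14, -0.67, -0.77 and -0.81 from lowest to highest. Regions with no C57 PPARγ peak in the same ranges had 0.29, -0.50, -0.67 and -0.79. The values of both sets lay closest in the highest bin. The summed H3K27ac at the starts of the 10 macrophage markers fell as well, from 5333 and 5135 tags in basal to 2318 and 2119 at 24 hours. At the 6 markers of other cell types with a region, the sum fell from 626 and 468 to 288 and 267. The part of these falls in the result was not tested. Among shared regions, the median at 24 hours was -0.61 with and -0.68 without a DR1 match, and -0.66 at promoters and -0.67 elsewhere. It was -0.72 with and -0.49 without a STAT6 peak at 24 hours, and -0.57 where the PPARγ count had at least doubled against -0.65 where it was lower. No test was run between these subsets.

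**Figure D3:**
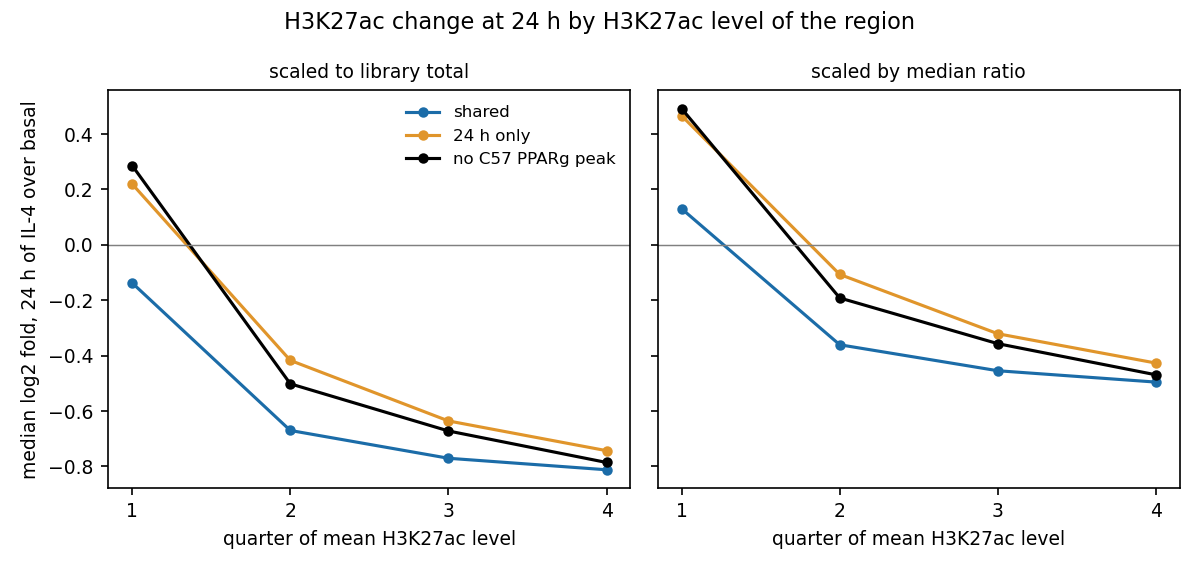
Median log2 fold of H3K27ac at 24 hours over basal in C57 (y axis) in 4 bins cut at the quartiles of mean H3K27ac level of shared regions (x axis), for regions at shared sites, at 24-hour-only sites and with no C57 PPARγ peak, with tags scaled to the library total (left) and by the median ratio (right). Shared regions lie lowest in each bin of both panels, and the lines draw together as the level rises.

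A few shared sites gained H3K27ac. The 5 largest rises were picked for groups that do not overlap and a mean of at least 16 tags in either group. All 5 passed this filter only through their 24-hour group, so their folds and p-values are a description. The largest rise at 24 hours was at the site 16021 bp from the start of Ear14 (chr14:51219312-51219512), a member of the eosinophil-associated ribonuclease family, whose copies are alike enough that reads may be shared between them. It had 4.75 and 17.8 tags in basal, 67.2 and 49.9 at 1 hour, 116 and 186 at 6 hours and 227 and 255 at 24 hours. Both basal libraries lay below all later ones, and the log2 fold at 24 hours was 4.54 ± 0.61 (SE, n = 2 libraries a group, limma adjusted p = 0.0011). The site nearest Inpp5a (chr7:139350764-139350964), which encodes an inositol phosphatase, lies between genes at -38245 bp from its start. There H3K27ac went from 4.75 and 27.1 in basal to 95.8 and 43.4, 120.1 and 192, and 151 and 299.9 at 1, 6 and 24 hours. The fold was 4.07 ± 0.70 (limma adjusted p = 0.0055). Its PPARγ count went from 25.9 to 156.

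The other 3 of these rises, all picked for groups that do not overlap, were smaller. At Stt3b (chr9:115434904-115435104), an oligosaccharyltransferase subunit far from the site, H3K27ac was 1.36 and 2.14 in basal and 25.5 and 42.0 at 24 hours, with a fold of 3.63 ± 0.62 (limma adjusted p = 0.0057). At Pim3 (chr15:88855476-88855676), a serine/threonine kinase, it was 2.71 and 9.98 in basal and 59.4 and 99.1 at 24 hours, with 3.61 ± 0.60 (limma adjusted p = 0.0048). In an intron of Por (chr5:135674478-135674678), the reductase that serves cytochrome P450 enzymes, it was 1.36 and 3.57 in basal and 20.4 and 59.1 at 24 hours, with 3.45 ± 0.63 (limma adjusted p = 0.0090). All 5 rises were already called at 6 hours and 4 of them, not Por, at 1 hour, and 7 shared regions were called higher at all 3 times. The site count of PPARγ was higher at 24 hours at all 5, and the site of Ear14 was in 1 of the 8 other strain lists while that of Pim3 was in 8. The fold at Inpp5a was 2.93 (limma adjusted p = 0.059) without basal replicate 1, and there the call was lost. At Pim3 it was 2.82 without that library, with an adjusted p just over the threshold. At Por it was 2.70 (limma adjusted p = 0.11) without 24-hour replicate 2.

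The largest falls, picked in the same way, were at other genes. Those at Tubgcp5 and Col4a1 passed the filter only through their basal group, so these values too are a description. In an intron of Ppcdc (chr9:57421244-57421444), an enzyme of coenzyme A synthesis, H3K27ac was 187 and 277 tags in basal, 30.1 and 30.6 at 1 hour, 29.3 and 27.4 at 6 hours and 29.7 and 25.6 at 24 hours. The later libraries hardly differed from each other and none reached the basal ones, with a log2 fold of -3.00 ± 0.53 at 24 hours (limma adjusted p = 0.0070). A second region that overlaps the first covered the same site and had -2.98. Near Tubgcp5 (chr7:55784622-55784822), a gene of microtubule nucleation, it was 72.6 and 175 in basal and 17 and 9.19 at 24 hours, a fold of -3.07 ± 0.62 (limma adjusted p = 0.018). Near Pot1b (chr17:55726326-55726526), a telomere protein, it was 106 and 175 in basal and 9.34 and 28.9 at 24 hours, a fold of -2.97 ± 0.64 (limma adjusted p = 0.026). In an intron at -10445 bp from the start of Col4a1 (chr8:11323171-11323371), which encodes a collagen, the values were 22.4 and 85.6 in basal and 9.34 and 1.97 at 24 hours, with a fold of -3.02 that missed the threshold (limma adjusted p = 0.060). The PPARγ count was lower at 24 hours at Ppcdc (23.7 and 17.1), Tubgcp5 (30.2 and 17.1) and Pot1b (50.6 and 25.7), and higher at Col4a1 (37.7 and 79.9). Without basal replicate 2 the 3 called falls were no longer called, and those of Tubgcp5 and Ppcdc were lost without 24-hour replicate 2 and that of Pot1b without 24-hour replicate 1. With the median ratio the calls at Tubgcp5 and Pot1b were lost too (limma adjusted p = 0.051 and 0.062).

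The H3K27ac of the lipid genes' sites was measured in 54 regions. Over these, limma called 0 at 24 hours in either direction, where 0.769% of shared regions were lower and 0.34% higher as background. The median log2 fold was -0.33 and 41 were negative, beside -0.67 over all shared regions. The medians were -0.40 for uptake and storage, -0.33 for oxidation, -0.29 for cholesterol handling and -0.04 for synthesis. They were -0.97 for the PPAR and RXR machinery, -0.94 for glycolysis, -1.11 for macrophage markers and -0.41 for markers of other cells, with 0 calls each. The site of Pparg itself had 315 and 400.0 tags in basal and 249 and 308 at 24 hours, a log2 fold of -0.36 ± 0.56 (limma adjusted p = 0.75). The 13 regions of IL-4 response genes had a median of 0.16. Cish, a STAT target that inhibits cytokine signaling, had the largest of them, with 19.7 and 10.7 in basal and 94.2 and 57.8 at 24 hours, a log2 fold of 2.27 ± 0.62 (limma adjusted p = 0.074).

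At Plin2, H3K27ac was 423 and 650.3 tags in basal, 96.6 and 71.3 at 1 hour, 186 and 219.7 at 6 hours and 228 and 299 at 24 hours. The 1-hour libraries were the lowest, and the basal libraries lay above all others. The log2 fold was -2.65 ± 0.55 at 1 hour (limma adjusted p = 0.014) and -1.0 ± 0.55 at 24 hours (limma adjusted p = 0.36). At Acaa2, a thiolase of fatty acid oxidation, it was 235 and 285 in basal, 81.2 and 57.5 at 1 hour, 105 and 161 at 6 hours and 167 and 135 at 24 hours. The basal libraries were again above all others, and the fold at 1 hour was -1.91 ± 0.55 (limma adjusted p = 0.037). Angptl4 went from 23.1 and 126 in basal to 0.77 and 8.26 at 1 hour, 8.47 and 37.1 at 6 hours and 34.8 and 132 at 24 hours. Its basal and 24-hour libraries overlapped, and its fold was -3.77 ± 0.89 at 1 hour (limma adjusted p = 0.021) and 0.32 ± 0.89 at 24 hours (limma adjusted p = 0.86).

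Slc27a1 had 57.7 and 188 tags in basal, 3.87 and 32.0 at 1 hour, 13.9 and 20.7 at 6 hours and 18.7 and 81.4 at 24 hours. The basal and 24-hour groups overlapped there, and the fold at 1 hour was -3.05 ± 0.83 (limma adjusted p = 0.031). These 4 of the 10 sites were called lower at 1 hour, where 22.9% of shared regions and 8.36% of all regions were. With the median ratio, edgeR or DESeq2 the call held at Plin2 alone of the 10, and without basal replicate 2 at none. At the other 6, H3K27ac was not called at any time. Cpt1a had 165 and 182 in basal, 95.1 and 43.4 at 1 hour, its lowest libraries, and 119.7 and 148 at 24 hours. Etfa had 209.6 and 130.5 in basal and 233 and 108 at 24 hours, where the groups overlapped.

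**Figure D4:**
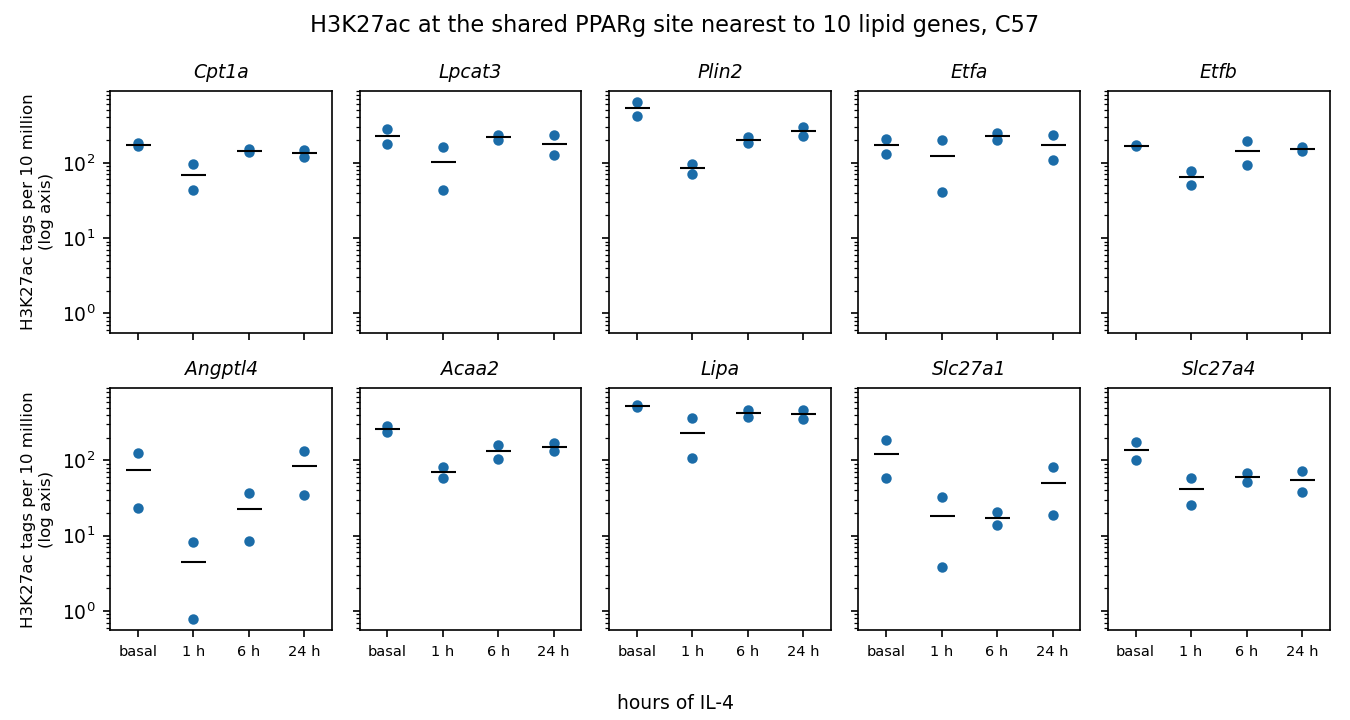
Normalized H3K27ac tags (log y axis) in each C57 library (points) and their mean (bars) in basal and at 1, 6 and 24 hours of IL-4 (x axis) at the shared PPARγ site nearest to 10 lipid genes. The 1-hour points lie below all others at genes that include Cpt1a, Plin2, Angptl4 and Acaa2. The 24-hour points lie at or below the basal range at most genes.

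Pol II, the enzyme that transcribes genes, was measured in 4 basal and 3 24-hour libraries over 67742 regions, of which 5277 overlapped a shared site. The median level at shared sites was 31.8, 32.1, 31.6 and 26.3 tags in basal and 28.7, 24.6 and 23.1 at 24 hours, so that the groups overlapped by basal replicate 4. In each of the 3 pairs of same-numbered libraries the median was lower at 24 hours. At 24 hours 8 regions were higher and 13 lower by limma, where 0.223% and 0.096% of all regions were, and the median log2 fold was -0.16 against -0.03 over all regions. With the replicate number as a block, 13 were higher and 49 lower, where 0.415% and 0.394% of all regions were. Without 24-hour replicate 1 or 2 no region was called, and without basal replicate 1 there were 56. At Etfa, Pol II was 93.6, 116, 58.4 and 45.6 in basal and 150.1, 161 and 79.5 at 24 hours. These ranges overlapped, with a log2 fold of 0.75 ± 0.39 (limma adjusted p = 0.63). It was higher at 24 hours in each of the 3 pairs, with 0.53 ± 0.26 with the block (limma adjusted p = 0.47). At Plin2 it was 24.3, 60.2, 98.1 and 53.7 in basal and 74.0, 17.8 and 68.0 at 24 hours, again with overlap. None of the 10 lipid sites was called for Pol II, with or without the block.

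The methylated histone marks gave few calls at shared sites. H3K4me2 had a median of 66.2 and 64.0 tags in basal and 48.8 and 29.3 at 24 hours, where replicate 2 stood apart with 18.9% of its tags in regions, against 27.2% in replicate 1. Limma called 2 shared regions where 0.236% of all regions were called, and the median log2 fold was -0.78 against -0.69 over all regions, or -0.10 against -0.01 with the median ratio. Without 24-hour replicate 1, which leaves the low library as the group, 3749 shared regions were called. H3K4me3, a promoter mark, had 7.28 and 8.29 tags in basal and 9.17 and 10.1 at 24 hours. Limma called 0 shared regions and 0% of all regions, while 735 shared regions had an unadjusted p under 0.05. There were 4 calls by edgeR and 10 by DESeq2. At the promoter site of Etfa it was 505 and 511 in basal and 383 and 409 at 24 hours, a log2 fold of -0.36 ± 0.10 whose groups did not overlap (limma adjusted p = 0.18). The 10 lipid sites had 0 calls for either mark by limma.

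PPARγ tags of the Egr2 genotypes gave a view of these sites in libraries that the rule did not use. The table covered 4677 EGR2 peaks that the authors name as induced by IL-4 at 24 hours, of which 307 overlapped a shared site. The values thus describe shared sites picked for a gain of EGR2, and the same choice applies to all sites of the table. Their median was 16.4 and 10.1 normalized tags in Egr2flfl basal libraries and 63.5 and 78.8 at 24 hours. It was 29.8 and 34.0 in LyzMCreEgr2flfl basal libraries and 33.4 and 29.7 at 24 hours. The Egr2flfl libraries at 24 hours were highest and those in basal lowest, with both LyzMCreEgr2flfl groups between them. Both groups carry the floxed Egr2 allele, and PPARγ tags do not measure the deletion itself.

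In Egr2flfl BMDMs PPARγ was higher at 24 hours without overlap of the libraries at 261 of the 307 sites (85.0%), beside 48.8% of all sites in the table. The median log2 fold was 2.24, against 1.66 over all sites, and 76 shared sites were listed at 0 in a basal library, so that their folds depend on the pseudocount of 1. Limma called 0 shared sites and 0% of all sites, although 169 shared sites had an unadjusted p under 0.05, and neither edgeR nor DESeq2 called any. With sites of at least 8 mean tags in either group, 295 of the 307 remained and 91 were called higher, where 10.8% of the sites kept were. A site may have passed this filter through its 24-hour group, so the 91 are no support for a rise. With the median ratio the median fold at shared sites was 0.27 and over all sites 0.48. The share of tags within the table's sites was 0.260% and 0.158% in Egr2flfl basal libraries and 0.805% and 1.07% at 24 hours.

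Between genotypes at 24 hours, PPARγ was lower in LyzMCreEgr2flfl than in Egr2flfl without overlap at 184 of the 307 sites (59.9%), beside 40.1% of all sites. The median log2 fold was -1.11 against -1.28 over all sites, or -0.11 against -0.59 with the median ratio, and limma called 0 shared sites and 0% of all sites, with 53 at an unadjusted p under 0.05. In basal the order was the other way at shared sites. With tags scaled to the library total, LyzMCreEgr2flfl was above Egr2flfl without overlap at 172 (56.0%), beside 14% of all sites, with a median log2 fold of 1.26 against 0.00. Limma called 0 shared sites and 0% of all sites, with 67 shared sites at an unadjusted p under 0.05. The share of tags within the table's sites was 0.343% and 0.408% in LyzMCreEgr2flfl basal libraries, against 0.260% and 0.158% in Egr2flfl. Within LyzMCreEgr2flfl, 48 sites were higher at 24 hours than in basal without overlap, beside 10.1% of all sites, and the median log2 fold was -0.08. There limma called 0 shared sites, with 10 at an unadjusted p under 0.05.

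The 4 sites with the highest Egr2flfl basal mean did not all follow these orders. The basal libraries of the genotypes overlapped at Pik3r5 and Mesp1, and those at 24 hours overlapped at Asah2. At Pik3r5 (chr11:68459521-68459721), a PI3 kinase subunit, PPARγ was 285 and 116 tags in Egr2flfl basal libraries and 693 and 545 at 24 hours, and 118.2 and 353 in LyzMCreEgr2flfl basal libraries and 129 and 265 at 24 hours. At Dhrs3 (chr4:144908821-144909021), a retinal reductase, it was 228 and 164, then 437 and 501, against 489.8 and 637, then 284 and 369. With tags scaled to the library total, Dhrs3 was higher after IL-4 in Egr2flfl and lower in LyzMCreEgr2flfl, with no overlap of libraries in either, but the Egr2flfl fold was -0.84 with the median ratio. The site nearest Mesp1 (chr7:79781055-79781255) is the shared site nearest Plin1, a lipid droplet protein. It had 243 and 95.1, then 475 and 466 in Egr2flfl, and 166 and 298, then 206 and 84.0 in LyzMCreEgr2flfl. The site nearest Asah2 (chr19:32181333-32181533), which encodes a ceramidase, lies at -73222 bp from its start. It had 159.6 and 136, then 383 and 205 in Egr2flfl, against 185 and 368, then 177 and 276. With tags scaled to the library total, the Egr2flfl libraries at 24 hours lay above the basal ones at all 4 sites, in the order given with log2 folds of 1.75 ± 0.69, 1.27 ± 0.32, 1.62 ± 0.63 and 0.92 ± 0.50 (limma adjusted p = 0.23, 0.12, 0.23 and 0.34). With the median ratio the 4 folds turned to -0.36, -0.84, -0.48 and -1.18, so that their direction depended on the scaling.

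The difference between genotypes in the response to IL-4 was tested as an interaction. Limma called 0 of the 307 sites, although 121 had an unadjusted p under 0.05, and neither edgeR nor DESeq2 called any. The median interaction was -2.47, against -1.50 over all sites. With sites of at least 8 mean tags in any group, a filter added after seeing the data that 300 of the 307 sites passed, 4 were called, where 0.144% of the sites kept were. All sites called in the table under this filter were these 4. At Dhrs3 the interaction was -2.06 ± 0.41 (limma adjusted p = 0.034). At Chic2 (chr5:74957380-74957580), PPARγ was 83.0 and 73.9 tags in basal and 394 and 549.9 at 24 hours in Egr2flfl, and 297 and 315 in basal and 318 and 349 at 24 hours in LyzMCreEgr2flfl. The libraries rose without overlap in Egr2flfl, and the interaction was -2.44 ± 0.49 (limma adjusted p = 0.034). The other two, 1810010D01Rik and E030018B13Rik, had -2.67 ± 0.56 and -3.53 ± 0.76 (limma adjusted p = 0.039 and 0.046). With the median ratio no site was called.

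**Figure D5:**
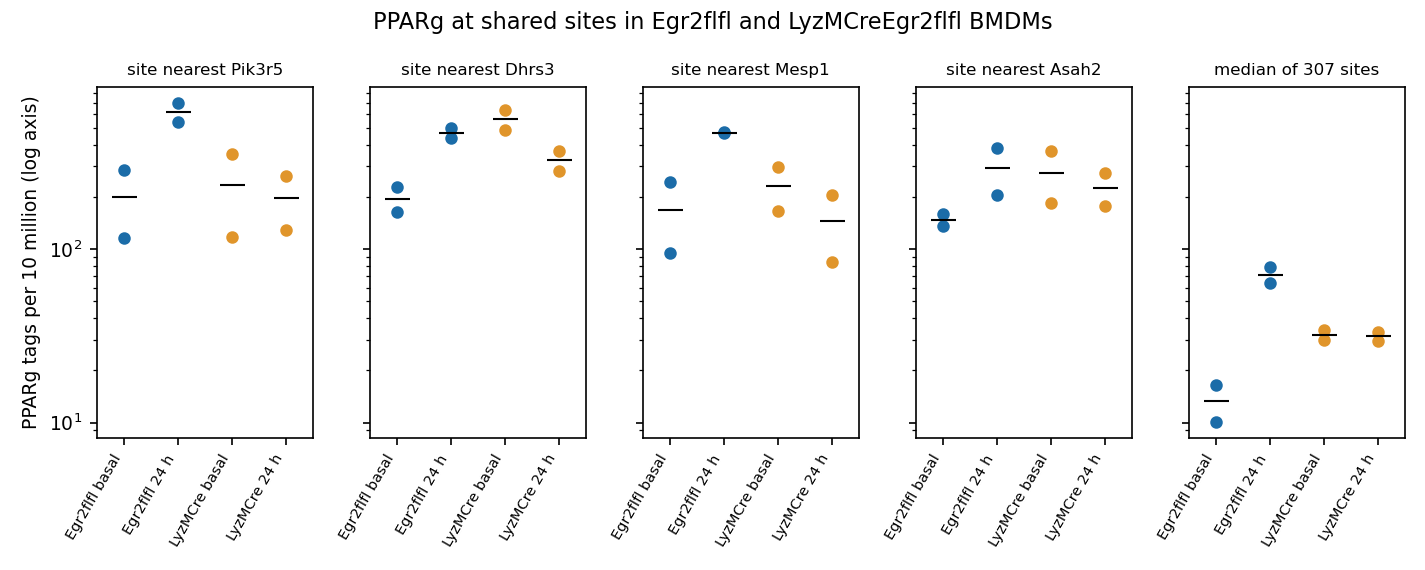
Normalized PPARγ tags (log y axis) in each library (points) with the group mean (bars) in Egr2flfl and LyzMCreEgr2flfl BMDMs in basal and at 24 hours of IL-4 (x axis) at the 4 named sites, and the median over the shared sites in the table. At the median, the Egr2flfl libraries go from 16.4 and 10.1 to 63.5 and 78.8, while the LyzMCreEgr2flfl libraries stay between 29.7 and 34.0.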

How the data were processed

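The study measured 267 ChIP-seq samples, and the values here came from peak lists of C57 and the 4 other strains and from 31 libraries with tags per region. Reads were mapped by the authors with Bowtie2 to strain genomes, moved to mm10 coordinates, and given to HOMER for peaks of 200 bp. The deposited peak lists give a score and a count for each peak, whose scales are not given in the sources used here, 1 list for each group. The methods describe a filter on reproducible peaks, but the PPARγ lists carry the peak caller's own columns, so whether it was applied to them is not given in the sources used here. PPARγ samples were cross-linked with DSG and formaldehyde. The signal tables deposited hold HOMER tags that the authors scaled to 10000000 tags a library, so a change in the share of tags within regions is not corrected. Whole reads were recovered within 0.1 read for 100% of values. Library totals ran from 6346277 to 29050468 tags. No 2 libraries agreed within sampling noise, and 38 other sample columns of the tables were not used here.

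Members and gene lists were chosen with earlier results of these data known. Overlaps needed 1 bp. Each table was fitted whole with limma 3.58.1 (trend, R 4.3.3) on log2(tags + 1) with no filter, groups as the only term, and Benjamini-Hochberg adjusted p under 0.05 as the threshold. Fold changes on this scale understate low regions. Pseudocount, filter, scaling, replicate block, edgeR 4.0.16 and DESeq2 1.42.0 on recovered reads, each library left out, overlap, list length and distance were alternatives. The methods name biological replicates without saying whether these were separate mice or cultures, so p-values measure the spread between these samples. The fits were tested on simulated data.

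Sites named are the shared site nearest each lipid gene (values for the 10 with the highest basal count), the 5 largest rises and falls of H3K27ac at 24 hours among non-overlapping groups with a mean of at least 16 tags, the 5 highest basal counts, the 4 highest Egr2flfl means, the smallest overlaps, and up to 6 DR1 sites outside chromosome 18. Sequences are from the mm10 reference and genes from its annotation, in which all 173 listed genes were found, and some of them are not reported here. For Pol II, same-numbered libraries deviated together (correlations of 0.118, 0.240 and 0.207 over 3 pairs), so the blocked counts are given beside the result. Blocked counts of the histone marks are given with the processing choices.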

Additional observations from a re-analysis of the deposited data

Results flagged for a closer look

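The 4 basal Pol II libraries were checked for 11 measures, and chance alone sets a library apart in about 1 in 20 of such checks. At the Slc27a1 site, Pol II was 11.23 tags in basal replicate 1 and 24.3 to 25.7 in the other three basal libraries, a gap that is large against the range of the group. The median Pol II over all shared sites was 26.33 in basal replicate 4, against 31.6 to 32.1 in the other three, and this library alone makes the basal and 24-hour medians overlap. At 4 shared sites in the Egr2 table, Dhrs3, Chic2, 1810010D01Rik and E030018B13Rik, the effect of IL-4 on PPARγ differed between genotypes by the interaction term, under a filter of at least 8 mean tags that was added after seeing the data, and at none without it.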

How the results depend on the processing

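The bins of level and of count, the genes with open starts and the filter on the interaction were added after seeing the data. The share of basal peaks that were shared, 82.1%, was 74.0% with an overlap of at least 50% of each peak, 91.2% in the better-scored 50% of each list and 55.3% with both lists shortened to the shorter. Under the same 3 choices the share in all 4 strains was 44.2%, 40.6% and 24.5% at 24 hours (54.3%) and 30.8%, 27.1% and 29.2% in basal (37.9%). Any other factor covered 76.1% and 73.0% under the first pair of them (85.7%). Lipid genes with a site numbered 42 within 10 kb (65 within 50 kb), and DR1 was in 4.17% with at most 1 mismatch and 11.7% in 100 bp (15.9%).

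H3K27ac calls at 1 hour (1294) were 209 with the median ratio, 2743 with the replicate block, 174 with edgeR, 597 with DESeq2 and 116 with the compared libraries alone. At 6 hours (349) they were 916 with the block, 649 with DESeq2 and 725 with the compared libraries alone. At 24 hours (62) they were 487, 264 and 0. With 1 library left out they ran from 14 (without basal replicate 2) to 3093 (without 1-hour replicate 1), from 8 (without either 6-hour library) to 353, with 41 without basal replicate 2, and from 17 to 37 at 24 hours, where each library lowers the count. Basal replicate 1 gave 576 at 1 hour. Pol II calls (21) were 36 with the median ratio, 62 with the block and 114 with DESeq2, and 0 to 56 with 1 library left out (basal replicates 2, 3 and 4 gave 7, 3 and 2). H3K4me2 calls (2) were 1 with a pseudocount of 5 or a mean of at least 16 tags, 13 with the block and 0 with DESeq2, and 0 to 3749 with 1 library left out. H3K4me3 calls (0) were 701 with the block, 4 with edgeR and 10 with DESeq2. PPARγ calls for IL-4 in Egr2flfl (0) were 91 with at least 8 tags and 0 to 15 with 1 library left out, and between genotypes at 24 hours (0) 0 to 1. A lone library was assumed to vary like the other groups. Of 35 log2 folds compared across these choices, 11 turned sign in at least one. No single site among them was called by the reported test or where its sign turned. With the median ratio, edgeR and DESeq2, IL-4 in Egr2flfl gave -0.36, -0.0051 and -0.42 at Pik3r5 (1.75), -0.84, -0.42 and -0.85 at Dhrs3 (1.27), -0.48, -0.18 and -0.58 at Mesp1 (1.62), and -1.18, -0.60 and -1.06 at Asah2 (0.92). The genotypes at 24 hours gave 0.49, 0.28 and 0.49 at Dhrs3 (-0.53) and 0.68, 0.31 and 0.57 at Asah2 (-0.34), where Asah2 ran from -0.79 to 0.11 (without Egr2flfl 24-hour replicate 1) with 1 library left out. H3K27ac at 24 hours gave 0.25, 0.32 and 0.32 at Etfa (-0.06) and 0.15, 0.15 and 0.16 at Etfb (-0.16). With 1 library left out it ran from -0.79 to 0.060 at Lpcat3 (-0.37), from -0.62 to 0.49 at Etfa and from -0.87 to 1.52 at Angptl4 (0.32). Without 24-hour replicate 2 the sign turned at all 3, and without basal replicate 1 at Etfa and Angptl4. The median of H3K4me3 (0.12) was -0.20 with a mean of at least 16 tags. The majority of H3K27ac calls at 24 hours turned from lower to higher with the median ratio, with edgeR and without basal replicate 2. The cause of these shifts was not tested. Outside Pol II, correlations of same-numbered libraries were 0.014 to 0.45 for H3K27ac, 0.29 for H3K4me2, 0.25 for H3K4me3 (2 pairs each) and 0.0066 to 0.096 for PPARγ. Those of H3K4me2, H3K4me3 and H3K27ac in basal with 1 or 24 hours were above the 0.118 to 0.240 of Pol II. With 2 libraries a group, both pairs give the same value. Whether these libraries pair is thus not settled, and the block there rests on a number only.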
